A study of Drosophila melanogaster with 3 samples.

Results

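Of the 6580 Grain peaks in the authors' optimal list, 231 had their summit inside protein-coding sequence (CDS) or a 3' untranslated region (3' UTR) of at least 1 annotated transcript. A peak was taken when the base at its summit lay in a CDS or 3' UTR feature of the Ensembl annotation, with transposable elements left out. A summit in CDS of any transcript counted as CDS, which gave 94 CDS peaks, and the other 137 were 3' UTR peaks. The choice used position alone and no peak value. The profiles were made by ChIP-seq of Grain, the product of the gene grn, in whole Drosophila melanogaster embryos of 0 to 24 h, both sexes together. The embryos came from a transgenic line that carries Grain with GFP fused to its C-terminus, and an antibody against GFP was used to pull down the sonicated chromatin. The single group held 3 biological replicates, and there was no second condition. Whole embryos mix every cell type and stage of that window, so a peak may come from a small part of the cells. Read counts are not part of the lists, which leaves the depth behind each peak unknown, and peak signal is the authors' own value with an unstated scale, used here to rank peaks within a list.

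Grain belongs to the GATA family of zinc-finger proteins and is best known from the posterior spiracles, whose shape depends on it, and from the growth of motor axons to their muscles. GATA factors bind a short sequence with the letters GATA at its core, and most of their known sites lie in introns and between genes, in DNA that regulates transcription. Coding exons are read by the ribosome and 3' UTRs by RNA-binding proteins and microRNAs, so their bases are also under selection for other roles, although enhancers that overlap coding exons are known.

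The sequences below show what lay under 10 of the stronger of these peaks that carried the GATA hexamer, searched on both strands within 50 bases of the summit as an A or T, then GATA, then an A or G. Each is 30 bases of the dm6 genome around the hexamer nearest the summit, 5′ to 3′ on the strand of the gene, and the capitals mark the hexamer, which holds TATC in place of GATA where it lies on the opposite strand. The first 6 lines come from coding sequence and the last 4 from 3' UTRs, in order of signal within each class. The stronger 3' UTR peak of CG14483 also held the hexamer and is not shown. Several stronger 3' UTR peaks held none within 50 bases of the summit, among them the strongest, in Ppa.
not: atgccggtcgctTTATCAccgccgatctaa
CG10352: attgcctgggccAGATAGcaatcaataata
CG10654: ctggccgtaatcTTATCTagaatcacattg
CG13085: gacgggtgattcCTATCTgcagccgcaact
fry: ccaggaagatgcTTATCAggcgaacctggc
CG1628: taatgaagatggAGATAAcgaagaagccgg
Plzf: ggccgttCTATCTTATCTaagatggtgact
Tim17a1: aaagcTTATCTaCTATCAaaatcatagcat
CG17219: actttgtaataaTGATAAgagatctaagtt
CG5399: gtatgcgcgataAGATAAacgtaaacgata
The coding stretches lie at chr3L:18621698-18621727 (not, minus strand), chrX:11875624-11875653 (CG10352, minus), chr3L:12507165-12507194 (CG10654, minus), chr2L:19429896-19429925 (CG13085, plus), chr3L:9671471-9671500 (fry, minus) and chrX:10602480-10602509 (CG1628, minus). The 3' UTR stretches lie at chr2L:12047039-12047068 (Plzf, minus), chr3R:12363754-12363783 (Tim17a1, minus), chr2L:3030432-3030461 (CG17219, plus) and chr3R:15696657-15696686 (CG5399, plus). In CG10654 and CG1628 the centre of the hexamer was 1 bp from the summit, and over the 10 peaks it was at most 23 bp away. Plzf and Tim17a1 carried 2 hexamers within the bases shown, overlapping by a single base in Plzf and separated by a single base in Tim17a1.

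Grain summits were rare in coding sequence and less rare in 3' UTRs. The 231 peaks made up 3.51% of the optimal list (95% Wilson interval 3.09 to 3.98), whereas CDS and 3' UTR hold 22.1% of the bases of the chromosome arms. Coding sequence alone held 1.43% of the summits (1.17 to 1.74) against 17.1% of the bases, an 11.9-fold lower share. The 3' UTRs held 2.08% of the summits (1.76 to 2.46) against 5.0% of the bases, a 2.40-fold lower share. Among the 6580 strongest peaks of each replicate, 3.81%, 4.36% and 3.40% had such a summit in replicates 1, 2 and 3, a mean of 3.86% ± 0.480 (SD, n = 3). Every replicate lay far below the share of the bases, by much more than the spread between replicates. By contrast, 5' UTRs held 11.2% of the summits on 3.00% of the bases. These base shares are a description of the annotation, and whether fragments from exons are sequenced or called equally well was not tested.

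The low share was local to the summit. The position at the summit was coding in 1.43% of optimal peaks, 500 bp to the left or right it was coding in 13.5% and 13.6%, 1000 bp away in 18.5% and 18.6%, and 2000 bp away in 20.2% and 20.9%. From 1000 bp outward the coding share was thus at or above that of all bases. The 3' UTR share followed the same shape with a shallower dip, from 2.08% at the summit to 3.34% and 3.16% at 500 bp and 5.32% and 5.73% at 2000 bp. Peak intervals reached exons more often than summits did, since 857 optimal intervals (13.0%) touched CDS and 1067 (16.2%) touched CDS or 3' UTR. Only 91 of the 231 peaks (39.4%) had their whole interval within CDS or 3' UTR.

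**Figure D1:**
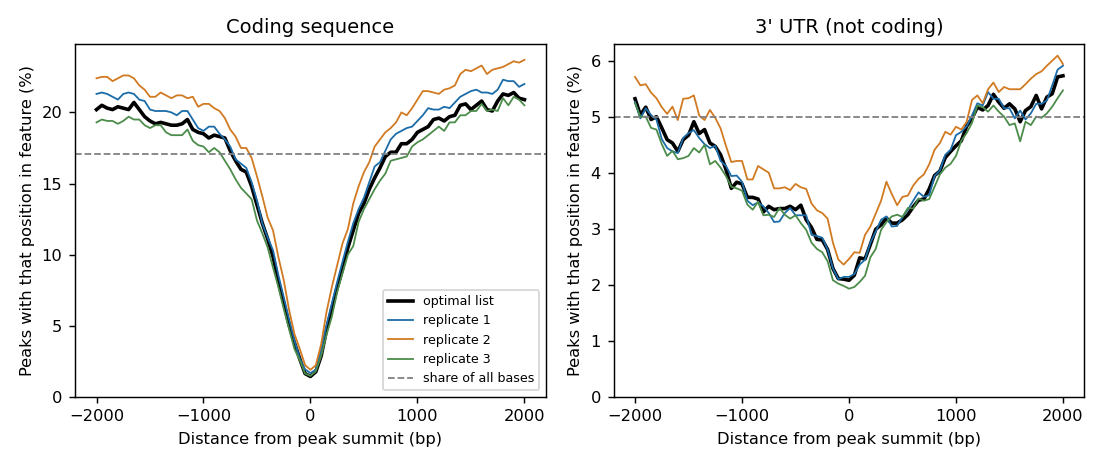
Share of peaks (y axis, %) whose position at a given distance from the summit (x axis, bp) was coding (left) or 3' UTR (right), for the optimal list in black and the 6580 strongest peaks of each replicate in colour; the dashed line is the share of all bases. Coding share in the optimal list fell to 1.43% at the summit and was 20.2% and 20.9% at 2000 bp, and the 3 replicates followed the same curve, with replicate 2 highest.

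Within the optimal list the share did not change steadily with signal, and it was higher further down the pooled list. With the optimal list cut into 5 equal groups by signal, 39, 55, 55, 34 and 48 of 1316 peaks, from the strongest group to the weakest, had a CDS or 3' UTR summit (2.96%, 4.18%, 4.18%, 2.58% and 3.65%), with intervals that overlap. Among the next 6580 peaks of the pooled list the share was 4.82% (4.33 to 5.36), and among the 16840 after those it was 6.62% (6.26 to 7.01). Coding summits alone made up 2.04% and 3.90% of these. Each replicate's own list showed the same order, with 3.81%, 5.15% and 7.70% in replicate 1, 4.36%, 7.19% and 12.9% in replicate 2, and 3.40%, 4.67% and 7.27% in replicate 3. Past the optimal list the coding share came closer to that of all bases among the weakest peaks, most of all in replicate 2. Summits in 3' UTRs made up 2.78% of the next 6580 pooled peaks and 2.73% of the 16840 after those, with no rise between them.

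**Figure D2:**
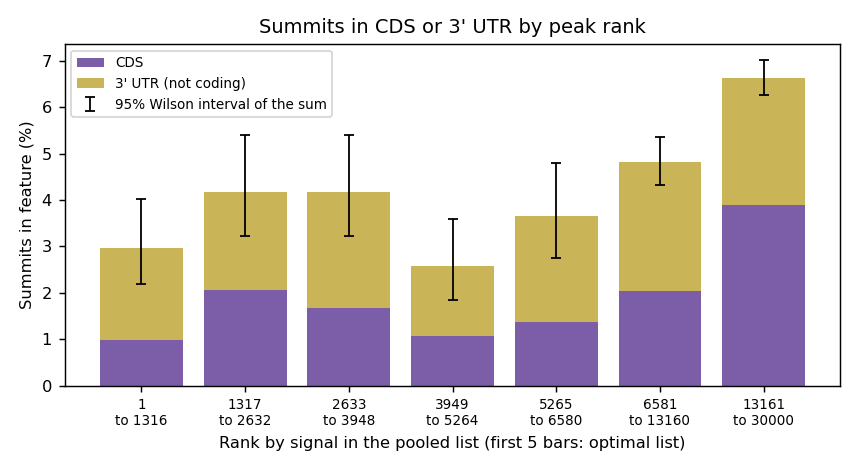
Share of peaks with a summit in CDS or 3' UTR (y axis, %) by rank in the pooled list (x axis), stacked by class, with 95% Wilson intervals of the sum. The first 5 bars, which make up the optimal list, lie between 2.58% and 4.18%, and the last bar reaches 6.62%.

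The strongest coding peak lay in not, which encodes the ubiquitin protease of the SAGA complex. It had signal 880.9 and rank 59 in the pooled list, and ranked 53, 45 and 88 in replicates 1, 2 and 3. Its summit sat at coding base 422 of 2109, in the first of 5 exons, 438 bp from the nearest transcription start site (TSS) of not, and this base is coding in 1 of 3 coding transcripts of not and also lies in an annotated 5' UTR. The replicate summits were 0, 12 and 2 bp from the pooled one, so position and rank were both close across the replicates.

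CG10352 held the next coding peak (signal 553.9), which ranked 326, 200 and 325, near the end of its reading frame at coding base 900 of 945. CG10654 followed with signal 498.8 and ranks 402, 580 and 295. The peak in CG13085 (signal 445.5) ranked 561, 685 and 437. These genes have no name beyond their number, and all 3 peaks lay over 500 bp from any TSS. The peak in fry, which encodes the large protein Furry, a partner of the kinase Tricornered in cell shape and dendrite growth, had signal 435.5 and ranked 447, 512 and 799. It was 4012 bp from the nearest TSS, in the second of 29 exons, which is coding in each of the 8 coding transcripts of fry. In CG1628 (signal 401.1; ranks 980, 521 and 584) the summit was at coding base 67, 218 bp from the TSS.

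The remaining coding peaks of the 12 strongest lay in otp, for, Gpdh1, raskol, aay and fend. In otp, the gene of the homeodomain factor Orthopedia, the peak (signal 379.0) ranked 727, 854 and 826 and sat at coding base 1163 of 1248. In for, which encodes a cGMP-dependent protein kinase, it ranked 924, 736 and 827 (signal 368.4), 116 bp from a TSS of for and in an intron of other for transcripts. Gpdh1, the gene of glycerol-3-phosphate dehydrogenase, had a peak (signal 364.9) that ranked 962, 520 and 1119, but its summit was 1 bp inside the exon. The summits of the strongest overlapping replicate peaks lay at 127, -196 and 72 bp from it, and 2 of the 3 were in CDS or 3' UTR. In raskol, which encodes a Ras GTPase-activating protein, the peak (signal 348.8) ranked 1024, 842 and 1049. Its summit was 18 bp inside the coding stretch, and 2 of the 3 replicate summits compared with it were in CDS or 3' UTR. In aay, the gene of phosphoserine phosphatase, it ranked 839, 1028 and 1379 (signal 337.3), and this summit also lay in an intron of Atat. The peak in fend, a gene of motor axon guidance, ranked 686, 1337 and 381 (signal 336.8). In fend the summits of the strongest overlapping replicate peaks lay 205, 203 and 155 bp from the pooled summit, and none of them was in CDS or 3' UTR. Whether a weaker replicate peak had its summit in the exon was not tested.

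The 4 strongest 3' UTR peaks ranked higher in the pooled list than the coding ones after not. Over all peaks of each class the order was not the same, with a median signal of 178.9 for 3' UTR and 187.0 for coding peaks. Ppa, which encodes the F-box protein Partner of paired, held the strongest (chr2R:22686009-22686407, signal 777.4), with ranks 111, 174 and 59, 2786 bp from any TSS, in a 3' UTR of 1508 bp and 676 bp from the end of the transcript. Plzf, the gene of a zinc-finger protein, followed with signal 746.1 and ranks 102, 75 and 172. In SERCA, which encodes the calcium pump of the endoplasmic reticulum, the peak (signal 735.6) ranked 94, 78 and 218. That summit was 3' UTR in 1 of 9 coding transcripts and 71 bp from the TSS of its neighbour CG2812. Tim17a1, a gene of the mitochondrial inner membrane translocase family, had ranks 115, 82 and 192 (signal 718.3). These 4 peaks were among the 218 strongest of every replicate.

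The next 3' UTR peaks lay in CG14483 (signal 618.0; ranks 315, 76 and 239), gny (602.8; 161, 164 and 425), CG6996 (565.4; 258, 245 and 301) and ghi (493.4; 426, 331 and 393). Those of CG14483, gny and CG6996 lay 369, 177 and 491 bp from the TSS of another gene, which was an antisense RNA gene for CG14483 and CG6996. In all 8 of these strongest 3' UTR peaks each replicate summit also lay in CDS or 3' UTR. Within 50 bases of the summit, the peaks of Plzf, Tim17a1 and CG14483 held the GATA hexamer. Those of Ppa, SERCA, gny, CG6996 and ghi did not.

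**Figure D3:**
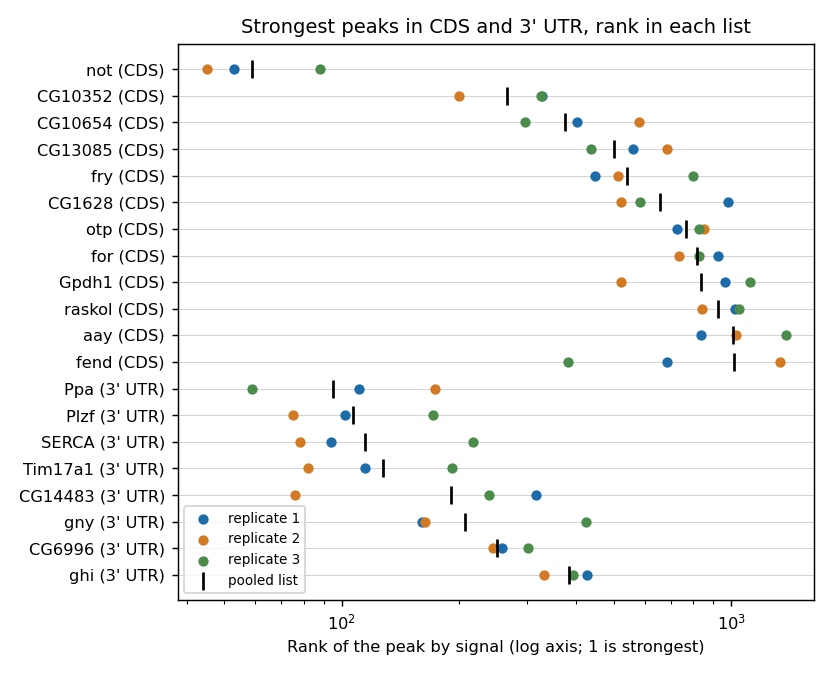
Rank by signal (x axis, log scale, 1 is strongest) of the 12 strongest CDS peaks and 8 strongest 3' UTR peaks in each replicate (coloured dots) and in the pooled list (bars). The peak in not ranked 53, 45 and 88, the Ppa peak 111, 174 and 59, and the fend peak ranged from 381 to 1337.

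Coding summits lay early in their genes. Of 94 coding summits, 57 (60.6%, 50.5 to 69.9) were in the first 20% of the coding sequence and 14 (14.9%) in the last 20%. Coding positions and exons were counted in 1 transcript per peak, the one with the longest coding part among those holding the summit. By exon, 32 were in the first exon of several, 44 in an internal exon, 16 in the last and 2 in a transcript of 1 exon. The same split over all coding bases was not computed. Within 500 bp of a TSS lay 47 of the 94, and for 42 of those the nearest TSS belonged to the gene itself. Over all coding bases, 18.5% lie that close to a TSS.

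Summits in 3' UTRs were near the start of a neighbour more often than near their own. Of 137, 49 (35.8%, 28.2 to 44.1) lay within 500 bp of a TSS, against 10.9% of 3' UTR bases, and for 47 of the 49 the nearest TSS was that of another gene. Their 3' UTRs had a median length of 754 bp, whereas the longest 3' UTR per gene had a median of 227 bp. Longer regions offer more bases, and the base in the middle of all 3' UTR bases ranked by length lies in a UTR of 1344 bp. Against that length the 3' UTRs of these peaks were not long. The summit was a median of 289 bp from the end of the transcript, and 110 of the 137 were in the last exon of several.

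Together, 96 of the 231 peaks (41.6%) lay within 500 bp of a TSS, beside 39.7% of all optimal peaks. The difference from the other optimal peaks was 1.90 percentage points (95% Newcombe interval -4.39 to 8.45). In the replicates it was 4.56, -2.06 and -1.22 points (exact sign-flip permutation test over the 3 replicates, two-sided, p = 1.00; the smallest p that 3 replicates allow is 0.25). Coding peaks exceeded 3' UTR peaks in this share by 14.2 points (1.30 to 26.7), and by 17, 14.0 and 13.9 points in the replicates (exact p = 0.25). The direction was the same in 3 of 3 replicates, which is as much as this design can show. A further 103 peaks (44.6%) were over 1000 bp from any TSS. Among the 173 peaks whose summits in all 3 replicates lay in CDS or 3' UTR, the share near a TSS was lower, at 34.1%.

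Not every summit was exonic in each transcript, and the replicate summits compared with it were not all in CDS or 3' UTR. For 54 of the 231 peaks (23.4%) the same base was also in an intron of the gene or of another gene, or in a 5' UTR, in some transcript. The pooled summits lay a median of 13.0, 21.5 and 15.0 bp from the summits of the strongest overlapping peaks of replicates 1, 2 and 3. Only that summit was compared in each replicate, so a weaker replicate summit inside the exon would not be seen. A pooled summit beside a stronger peak may thus have been set against that neighbour, and the counts below include such cases. In 173 peaks (74.9%, 68.9 to 80.0) the summits of all 3 replicates were in CDS or 3' UTR, in 31 those of 2, in 12 that of 1 and in 15 none. This held for 117 of 137 3' UTR peaks (85.4%) and for 56 of 94 coding peaks (59.6%). Coding summits had less room, since they were a median of 36.5 bp inside a stretch with a median length of 192.5 bp, against 235.0 bp inside 833.0 bp for 3' UTR summits. Near a TSS, 22 of 47 coding peaks kept all replicate summits inside, and further away 34 of 47 did.

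Many summits sat close to an exon border. Of the 231, 32 were under 20 bp inside and 76 under 50 bp inside. Another 44 optimal summits lay within 20 bp outside a CDS or 3' UTR, 25 of them in introns, 13 in 5' UTRs, 5 between genes and 1 in a noncoding exon. Membership of these peaks turns on distances as small as those between replicate summits. Of the 84 peaks 200 bp or more inside, 81 kept all 3 replicate summits inside, whereas 10 of the 32 under 20 bp inside did.

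**Figure D4:**
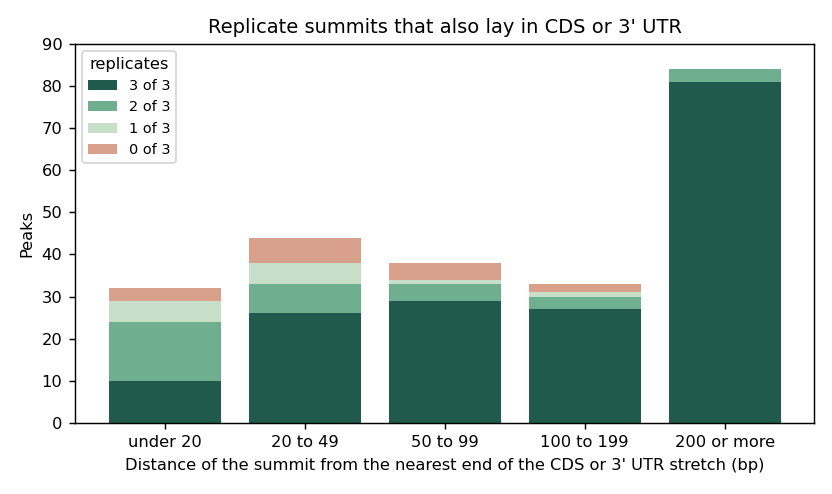
Number of peaks (y axis) by distance of the summit from the nearest end of its CDS or 3' UTR stretch (x axis, bp), shaded by how many of the 3 replicate summits also lay in CDS or 3' UTR. Under 20 bp, 10 of 32 peaks had all 3 inside, and at 200 bp or more 81 of 84 did.

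The GATA hexamer lay under many of these summits, at a share close to that of the list as a whole. It lay within 50 bases of the summit in 112 of 231 peaks (48.5%, 42.1 to 54.9) and in 37 of the flanking windows, equally wide and centred 500 bp to the right (16.0%), a difference of 32.5 percentage points. It was at the summit alone in 93 peaks and in the flank alone in 18 (exact McNemar test, two-sided, p = 2.3e-12 after Benjamini-Hochberg adjustment over 10 motifs). Among the strongest peaks of the replicates the share was 50.6%, 44.3% and 49.6% at the summit, a mean of 48.1% ± 3.40, and 19.6% ± 1.42 in the flank (SD, n = 3). The summit exceeded the flank in 3 of 3 replicates by far more than their spread. Peaks are not independent samples, so the McNemar p describes this list.

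Over all optimal peaks the share with a hexamer was 46.2%. CDS and 3' UTR peaks exceeded the other optimal peaks by 2.34 points (Newcombe interval -4.15 to 8.87), and by 5.91, 0.710 and 5.61 points in the replicates (exact sign-flip permutation test, two-sided, p = 0.25, the smallest possible). The interval holds 0 and leaves room for a difference of several points either way. At over 500 bp from a TSS the difference from intronic peaks was 1.40 points (-7.21 to 9.79) and from peaks between genes 8.65 points (-0.311 to 17.4).

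Both classes carried the hexamer at the summit. Of the coding peaks 40 of 94 had it (42.6%) against 13.8% in the flank (exact McNemar adjusted p = 0.00066), and of the 3' UTR peaks 72 of 137 (52.6%) against 17.5% (adjusted p = 1.2e-08). Coding sequence as a whole holds the hexamer less often, in 10.9% of windows of 101 bases, than 3' UTR (19.0%) or intron (17.8%). The windows are not alike, because 36 of the 94 coding summits were at least 50 bp inside their stretch, so the windows of the others reached past the CDS and 3' UTR. Coding sequence is richer in G and C (53.3%) than 3' UTRs (35.1%). At the summits the median GC content was 49.5% for coding and 40.6% for 3' UTR peaks.

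Coding peaks away from a TSS held the hexamer more often than those near one. Over 500 bp away, 26 of 47 had the hexamer (55.3%) against 10.6% in the flank (exact McNemar adjusted p = 0.00049). Within 500 bp, 14 of 47 had it (29.8%) against 17% (exact McNemar adjusted p = 0.79), which did not pass. The difference between distal and TSS-proximal coding peaks was 25.5 points (Newcombe interval 5.55 to 42.9), and it was 25.3, 23.8 and 24.4 points in the replicates (exact sign-flip permutation test, two-sided, p = 0.25, the smallest possible). Placement moved with this difference, as given above, and with the 56 coding peaks that kept all 3 summits inside the shares were 21 of 34 (61.8%) and 7 of 22 (31.8%). The other optimal peaks also had more hexamers away from a TSS, by 11.3 points (8.83 to 13.8). For 3' UTR peaks the shares were close, at 53.4% away from and 51% near a TSS, a difference of 2.39 points (-14.5 to 19.3) that changed sign between replicates (2.47, 8.6 and -9.22).

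**Figure D5:**
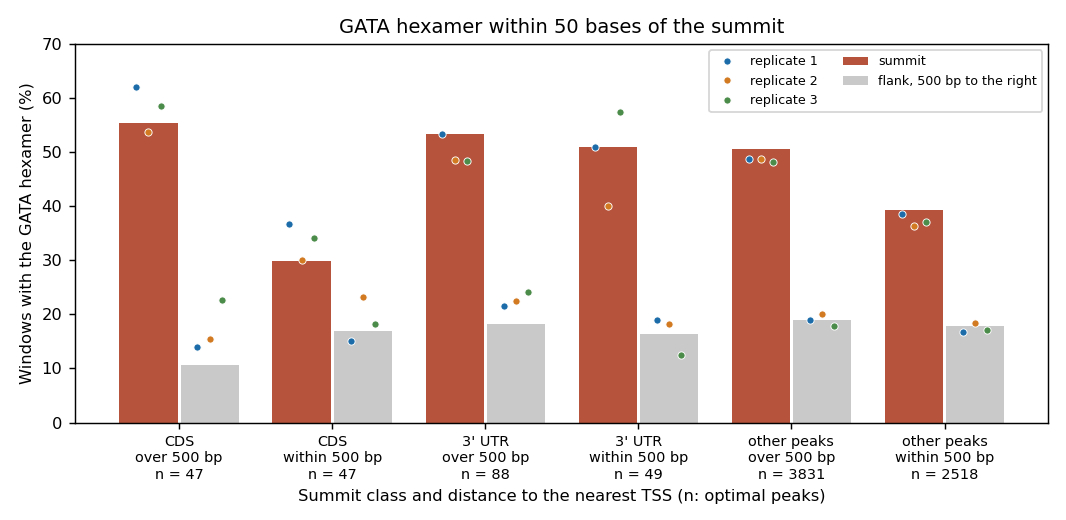
Share of windows within 50 bases of the summit (red bars) or of the flank 500 bp to the right (grey bars) that held the GATA hexamer (y axis, %), by class and distance to the nearest TSS; bars are the optimal list and dots are the strongest peaks of each replicate. Coding peaks stood at 55.3% away from a TSS and 29.8% near one, while 3' UTR peaks stood at 53.4% and 51%.

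The hexamers within coding sequence were read in several frames. Of the 40 coding peaks with one, 29 had the nearest hexamer wholly in CDS, 13 on the coding strand and 16 on the opposite strand. Over all 27357 hexamers in annotated coding sequence, 45.3% were on the coding strand and 54.7% on the opposite strand. On the coding strand none of the 13 began at the first position of a codon, 4 began at the second and 9 at the third. Of all 12393 hexamers on the coding strand, 14, 6466 and 5913 began at positions 1, 2 and 3. At the first position each spelling of the hexamer on that strand puts a stop codon in the reading frame. On the opposite strand the 16 began at codon positions 1, 2 and 3 in 3, 8 and 5 peaks. All 14964 hexamers on that strand began there in 2149, 4871 and 7944 cases. Over all 112 peaks the nearest hexamer was on the strand of the gene in 58 (51.8%), and 37 of the 231 peaks (16.0%) held at least 2 copies.

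Of the other 9 motifs searched, 1 passed the test of summit against flank, a reordered hexamer that overlaps the GATA hexamer. The elements of housekeeping promoters, bound by DREF (TATCGATA) and M1BP (GGTCACAC), were in 0 of 231 windows, which allows a share of up to 1.30% for each. The other optimal peaks had them in 1.39% and 0.788% of windows. The limit of 1.30% is just under their DREF share and above their M1BP share. The Wilson interval for 0 of 231 reaches 1.64%, which is above both shares. These counts therefore do not separate the 231 peaks from the others. Among the 96 peaks near a TSS 0 also had either, which allows up to 3.12% for each, while 3.02% and 1.87% of the other optimal peaks near a TSS had them. The GAGA element (GAGAG) was in 13.4% of summit and 13.4% of flank windows, and 12.3% of coding and 9.95% of 3' UTR windows hold it. The homeodomain core (TAATTA) was at 7 summits and in 13 flanks. Its count in coding peaks was 1 against 8 (exact McNemar adjusted p = 0.13). The Zelda motif (CAGGTAG) was at 1 summit, and the E boxes CAGCTG and CACGTG at 13 and 3 summits against 12 and 5 flanks. Of 2 sets of reordered hexamers, the first (an A or G, then AGAT, then an A or T) overlaps the GATA hexamer and was also higher at summits (36.4% against 15.6%), (exact McNemar adjusted p = 1.4e-06), so it is no control. The second (an A or T, then ATAG, then an A or G) was in 13.9% of both.

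The share of the peaks that recurred in all replicates was close to that of the list as a whole. A peak counted as found in a replicate when it overlapped, by at least 1 bp, one of the 6580 strongest peaks there. A weak peak beside a stronger one can therefore count through its neighbour, so these shares may overstate how often the peaks themselves recurred. For example, the Gpdh1 peak of signal 123.6, at pooled rank 5635, was found through replicate peaks of ranks 962, 520 and 1119. Of the 231 peaks 159 (68.8%, 62.6 to 74.5) were found in all 3 replicates, beside 67.8% of all optimal peaks, 45 in 2, 26 in 1 and 1 in none. The difference from the other optimal peaks was 1.06 points (Newcombe interval -5.29 to 6.80). By replicate, 90.9%, 83.1% and 82.7% were found, and replicate 3 alone was below the other peaks, by -5.14 points (-10.6 to -0.728). Over the replicates the mean difference was -0.627 ± 3.91 points (SD, n = 3; exact sign-flip permutation test, two-sided, p = 1.00). Recurrence followed signal, with 39 of 39 in the strongest of the 5 groups and 10 of 48 in the weakest. Between them it was 51 of 55, 45 of 55 and 14 of 34. In the same groups 99.8%, 96.7%, 81.4%, 43.9% and 17.3% of the other optimal peaks were found in all 3 replicates. The fall with signal was thus not particular to the 231 peaks. The optimal list is the head of the pooled list, which holds the same replicates, so this order is partly set by the choice of peaks.

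The 231 peaks lay in 219 protein-coding genes, 1.57% of the 13945 annotated, while 2166 genes held an optimal summit anywhere in their body. Only 10 genes held more than 1. The most were in frc, which encodes a nucleotide-sugar transporter of the secretory pathway, with 4 peaks, all in 3' UTR sequence that overlaps Coq4, a gene of ubiquinone synthesis. Their signals were 226.0, 178.3, 173.6 and 150.1, and the strongest ranked 2374, 2459 and 2410. The peak of signal 173.6 lay in 3' UTRs of both genes. The others also lay in an annotated 5' UTR and in an intron of Coq4. Gpdh1 held 3 peaks, 2 coding and 1 in its 3' UTR, with signals 364.9, 123.6 and 236.5. The coding pair lay in the same exon of 207 bp, 1 and 5 bp from its ends. CG5399, laza, which encodes a lipid phosphate phosphatase, and CG7778 held 2 each, all in 3' UTRs. In CG5399, laza and CG7778 both peaks of the pair had the same strongest overlapping peak in each replicate, which ranked 1099, 1859 and 775 in laza. Weaker overlapping peaks were not looked up, so whether the replicates also list a second summit was not tested. The coding pair of Gpdh1 (ranks 962, 520 and 1119 for both) likewise shared its strongest overlapping peaks. So did the frc peaks of signal 178.3 and 150.1 (ranks 2187, 2593 and 3526 for both).

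Gene lists tied to Grain's known biology are too short to read against the 1.57% of all protein-coding genes, at which none of them would be due as many as 1 gene, so their counts are a description. The lists do not hold every gene of their process, and fend and raskol, whose coding peaks are described above, are in none of them. None of the 6 genes of the GATA family and its partner, grn included, had a CDS or 3' UTR peak, although 4 of the 6 held an optimal summit in their body. The same was so for 23 posterior spiracle genes (0 with a CDS or 3' UTR peak, 15 with any summit), 14 tracheal and FGF genes (0 and 12), 26 axon guidance genes (0 and 14) and 19 Wingless pathway genes (0 and 13). Among 11 Hox genes and cofactors 1 had one, hth, which encodes the homeodomain partner of Extradenticle. Its coding peak had signal 120.0 and ranked 4367, 16007 and 7568, so it was among the 6580 strongest in replicate 1 alone. Among 15 Dpp pathway genes 1 had one, shn, which encodes the zinc-finger factor Schnurri, and its 3' UTR peak was stronger, with signal 402.1 and ranks 785, 326 and 964.

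The remaining lists also held few CDS or 3' UTR peaks, and some of them held few optimal summits of any kind. Segmentation genes (0 of 19), the Enhancer of split complex (0 of 12), and the Notch (0 of 14), EGF receptor and Ras (0 of 17) and Hedgehog (0 of 11) pathways had none, nor did 19 heat shock, 120 cuticle and 179 chemoreceptor genes. An optimal summit anywhere in the body was held by 4, 1, 7, 9 and 5 genes of the first of these lists, in that order. It was held by 2 heat shock, 1 cuticle and 0 chemoreceptor genes, so a lack of CDS or 3' UTR peaks says little there. Of 88 cytosolic ribosomal protein genes 1 (1.14%) had a peak, RpS26, in its 3' UTR (signal 142.1, ranks 3933, 6230 and 7283). Of 85 cytochrome P450 genes 1 (1.18%) had one, Cyp309a2 (signal 133.2, ranks 4481, 4031 and 6437). Both shares are near the 1.57% of all protein-coding genes, and 9 and 8 genes of these lists held any optimal summit. The Cyp309a2 peak was 203 bp from the TSS of its neighbour Cyp309a1.

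By chromosome arm, there were 51 of 1261 optimal peaks on 2L, 53 of 1329 on 2R, 46 of 1473 on 3L, 45 of 1581 on 3R and 34 of 925 on X. Of 11 peaks on the small chromosome 4, 2 were among them, in the 3' UTR of Cals (signal 326.8; ranks 1464, 450 and 1272), the gene of Calsyntenin, and in the coding sequence of onecut (143.1; 3340, 4202 and 8930), the gene of a homeodomain factor. Another optimal summit lay within 1000 bp of 61 of the 231 (26.4%), compared with 31.5% of the other optimal peaks. At the border of the optimal list, the weakest CDS or 3' UTR peaks inside had signals 110.9 and 111.1, and the strongest just outside had 109.2 and 109.1.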

How the data were processed

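The authors deposited narrowPeak lists on dm6 for each replicate, a pooled list and an optimal list from an irreproducible discovery rate test, per the file descriptions. The deposited signal value of each peak is a score with an unstated scale, set separately in each list, and the deposited summit offset is in bp. The aligner and the peak caller were not given in the sources used here. No control file was analysed here. Replicate and pooled lists hold 30000 peaks each, and the 6580 optimal peaks were checked to be the head of the pooled list. They lie on 6453 distinct intervals and the 231 peaks on 230, each kept as listed. Replicate numbers come from the labels, which call them biological, so values over 3 replicates measure the spread between these samples.

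Summits were placed on release 6 of the genome (dm6) and the Ensembl release 115 annotation, after comparing arm names and finding 0 peaks past an arm end. Coordinates count from 1. Motif letters were searched on both strands in 101 bases at the summit and in a window centred 500 bp to the right. Exact McNemar tests were adjusted over 10 motifs. Replicate shares used the 6580 strongest peaks of each list. A peak's rank and summit in a replicate are those of the strongest overlapping peak in its whole list. Wilson and Newcombe 95% intervals cover counting error, as do limits from a count of 0, which take 3 counts. No read depth is known. Scripts used Python 3.11.15, numpy 2.4.6, pandas 2.3.3, scipy 1.17.1 and matplotlib 3.10.9, and the counting and tests were checked on simulated data. Genes named are grn, those of the 12 strongest CDS and 8 strongest 3' UTR peaks, the 5 genes with most such peaks, up to 2 per gene list and the genes of the sequences shown; Cals and onecut were added after their values were seen. Of the symbols in the gene lists 4 (Gef26, h, nct and Star) had no match and were left out. The peaks, lists and motifs were chosen with earlier results of these data known. Alternatives changed the list, the replicates, the window, the flank and the distances.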

Additional observations from a re-analysis of the deposited data

How the results depend on the processing

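No paired analysis was possible because the series has a single group of 3 replicates. The excess of the GATA hexamer at the summit over the flank kept its direction and passed the threshold under all 14 alternatives run, 2 of them chosen after seeing the data. Without replicates 1, 2 and 3 in turn (keeping peaks found in the other replicates) it ran from 33.5 to 36.2 points, and the share of CDS or 3' UTR summits from 3.40% to 3.63%. With 3' UTRs left out that share was 1.43%. The hexamer difference from the other optimal peaks ran from 2.96 to 5.62 points without each replicate, and was 0.130 points among the 3290 optimal peaks with the highest signal, 6.14 points with 100 bases either side and 5.87 points for the 173 peaks whose replicate summits all stayed inside, an alternative chosen after seeing the data. These values lie within the interval given for it, and the cause of the moves was not tested. The share of peaks near a TSS was 29.9% at 250 bp and 55.4% at 1000 bp (30.5% and 51% for the other peaks), by construction, and 34.1% for those 173 peaks, again chosen after seeing the data. Without each replicate it ran from 41.3% to 42.9%. The difference in recurrence stayed inside its interval under all 8 alternatives, with either sign, from -2.70 to 2.72 points without each replicate. Precision is limited by 94 coding and 137 3' UTR peaks and by 3 replicates, with which no permutation p can fall below 0.25, and the read depth is unknown.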
